A study of Mus musculus with 27 samples.

Results

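The 6 genes described here are the E protein genes Tcf3, Tcf4 and Tcf12 and the Id genes Id1, Id2 and Id3, taken by symbol from 3 count tables that list 46078 genes (1 table for ProT cells and 1 for the mice without AKT(E17K)) or 22906 genes (the mice with AKT(E17K)). All 6 were found in each table, and all 6 passed the filter on low counts in each. The study sequenced RNA from thymus of C57BL/6 mice after bone marrow transplantation and from ProT cells, a T cell precursor line. The 12 mice formed 4 groups of 3: empty vector, TAL1 overexpression, AKT(E17K), an activated form of the AKT kinase, and AKT(E17K) together with constitutive TAL1. The 15 ProT libraries came from 1 line whose labels describe TAL1 expression induced through CreER and LoxP, with 3 libraries at each of 0, 6, 12, 18 and 24 h of 4-hydroxytamoxifen. No later time had an untreated library, so the induction, the drug and time cannot be told apart in this series. The labels give no age, promoter, construct species or share of transduced cells, and they leave unsaid whether the 3 ProT libraries of each time came from different cultures, so the p-values of that series measure only the spread between libraries, which may be technical.

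E proteins are basic helix-loop-helix transcription factors that bind DNA at E-boxes (CANNTG) as dimers: Tcf3 encodes E2A, Tcf12 encodes HEB and Tcf4 encodes E2-2. ID proteins carry the helix-loop-helix but no basic region, so a dimer of an ID and an E protein does not bind DNA. TAL1 belongs to another class of the same family and also pairs with E proteins. E2A and HEB drive early thymocyte development and hold its checkpoints, Id3 is a target of pre-T cell and T cell receptor signals through Egr factors, and Id2 is a marker of innate lymphocytes.

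Total counts per library were 2073752 to 11302098, and every mouse labelled TAL1 (7155918 or more) was sequenced more deeply than every empty-vector mouse (5915285 or fewer). No pair of libraries in a group agreed within sampling noise. The mouse Tal1 gene had 0 counts in all 6 mice labelled with TAL1, where a count of 0 allows up to 3 counts, or 0.265 to 1.35 CPM (counts scaled to a common library total), and 0 in the other mice except AKT(E17K) mouse m121, with 7. In ProT cells Tal1 was already at 2890 to 3100 CPM at 0 h and fell by 0.57 on the log2 scale by 24 h (edgeR adjusted p = 0.00172). Groups are therefore named by their labels, and directions rest on them. T cell markers were detected in every thymus library, summing to 12500 to 18100 CPM in the 6 mice without AKT(E17K) and 3690 to 6700 CPM, over 10 of the 12 markers, in the 6 with it. The markers missing from the second sum were Trbc1 and Trbc2. These averaged 1180 and 6280 CPM in empty-vector mice and 1560 and 7090 CPM in mice labelled TAL1, so the sums cannot be compared. ProT cells had 1550 to 2050 CPM of T cell markers, with Cd4 at 0 in all libraries at 0, 6, 18 and 24 h. Mouse m121 stood apart: its 8 stromal markers summed to 487 CPM, against 11.1 to 28.9 CPM in the other 5 mice of its table.

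Id2 is the only one of the 6 genes that passed the test both in mice and in ProT cells, and Tcf12 is an E protein gene that passed in neither, so sequence before a RefSeq start of each is shown, taken from RefSeq on GRCm38.p6. Both lie on the minus strand, are written 5′ to 3′, are the part of the 250 bases before that start that no annotated exon covers, and have the E-box in capitals. Id2 is chr12:25096254-25096342 and Tcf12, from the last of its 3 windows, is chr9:72111872-72112069. The gene span given for Id2 with its values includes a longer transcript that starts further upstream, so the Id2 stretch lies in an intron of that transcript.
Id2: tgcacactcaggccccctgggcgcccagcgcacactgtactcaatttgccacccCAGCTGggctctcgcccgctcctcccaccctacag
Tcf12: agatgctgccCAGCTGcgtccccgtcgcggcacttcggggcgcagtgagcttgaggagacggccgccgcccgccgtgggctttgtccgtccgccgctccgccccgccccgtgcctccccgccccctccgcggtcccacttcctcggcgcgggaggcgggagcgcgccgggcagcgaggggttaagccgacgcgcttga
Each RefSeq start was given a window of 300 bases, from 250 before to 50 after it, and motifs were searched on both strands. The Id2 window held 1 E-box, CAGCTG at position -196, and 0 matches to GATA. The Tcf12 window shown, picked because its E-box has the same letters, held that 1 E-box at -240 and 1 GATA, and the 3 Tcf12 windows together held 4 E-boxes and 3 GATA. The Tcf3 window held 1 E-box of other letters at -54 and 3 GATA, and the Id3 window 0 E-boxes and 2 GATA. Of all 32851 windows in the table, 72.3% held an E-box, with a median of 1, 16.3% held the form shown in capitals, and 57.9% held GATA. No window was found for Id1 or Tcf4.

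The E protein genes of empty-vector thymus differed widely in level. CPM values here use TMM factors set within a table. Tcf12 (ENSMUSG00000032228, chromosome 9, 71842688 to 72111871, GRCm38), the HEB gene, was at 845, 771 and 867 CPM in the 3 empty-vector mice and at 914, 794 and 918 CPM in the 3 mice labelled TAL1. The groups overlapped, and the log2 fold change was 0.08 ± 0.09 (SE, 95% interval -0.11 to 0.27, edgeR adjusted p = 0.714). Tcf4 (ENSMUSG00000053477, chromosome 18, 69343356 to 69689079), the E2-2 gene, was at 210, 159 and 164 CPM without and 213, 197 and 173 CPM with the TAL1 label. It too overlapped between groups (0.13 ± 0.13, adjusted p = 0.688). Tcf3 (ENSMUSG00000020167, chromosome 10, 80409514 to 80433647), the E2A gene, was at 105, 94.4 and 99.9 CPM in empty-vector mice and at 115, 112 and 129 CPM in mice labelled TAL1. Every mouse labelled TAL1 lay above every empty-vector mouse, yet the change of 0.25 ± 0.11 (95% interval 0.01 to 0.49) did not pass the threshold (adjusted p = 0.267). Among all 12357 genes tested, 11.7% had every mouse labelled TAL1 above every empty-vector mouse.

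The Id genes were each at a lower mean in the mice labelled TAL1, and 1 of the 3 passed the test. Id2 (ENSMUSG00000020644, chromosome 12, 25093799 to 25097140), whose product holds E proteins off DNA and is required for innate lymphocytes, was at 155, 126 and 112 CPM in empty-vector mice and at 88.2, 69.3 and 70.6 CPM in mice labelled TAL1. The groups did not overlap, as was so for 11.5% of all genes in this direction. Id2 fell by 0.79 on the log2 scale (SE 0.15, 95% interval -1.1 to -0.47, edgeR adjusted p = 0.00733), which is a level 0.579 times that of empty-vector mice. It was the 1 of 6 genes called in this comparison, in which 5.04% of all genes tested were called and 2.88% were called lower.

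Id3 (ENSMUSG00000007872, chromosome 4, 136143497 to 136145755), the Id gene induced by antigen receptor signals, was at 264, 225 and 281 CPM in empty-vector mice. In the mice labelled TAL1 it was at 226, 148 and 146 CPM, so the highest of them, M317, lay just above the lowest empty-vector mouse. The log2 fold change was -0.57 ± 0.16 (95% interval -0.91 to -0.22), with an edgeR adjusted p of 0.0608. Without M317 it was -0.81 (adjusted p = 0.00968), and with DESeq2 it was -0.57 (adjusted p = 0.0076), so whether Id3 passed depended on that mouse and on the tool. Id1 (ENSMUSG00000042745, chromosome 2, 152736251 to 152737410), the Id gene typical of cells that respond to bone morphogenetic proteins, was low. It was at 10.5, 4.63 and 3.79 CPM in empty-vector mice (63, 18 and 18 counts) and at 4.86, 2.48 and 2.52 CPM in mice labelled TAL1. Its groups overlapped, and -0.96 ± 0.52 did not pass the threshold (adjusted p = 0.386). Without empty-vector mouse M311, whose Id1 was highest, the value was -0.36 (adjusted p = 0.849).

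The median log2 change was -0.79 over the 3 Id genes, 0.13 over the 3 E protein genes and 0 over all genes tested. Markers of other cells were uneven between the groups. Of 10 markers of NK and innate lymphocytes, 6 were tested and 3 were called lower with the TAL1 label, among them Il2rb, the interleukin-2 and interleukin-15 receptor beta chain, at 51.2 ± 24 CPM against 7.62 ± 1.73 CPM (log2 -2.74, edgeR adjusted p = 0.000664). Of the 3 that were not called, Gzma, the most abundant, was at 67.3 ± 33.8 and 112 ± 15.1 CPM (log2 0.71, adjusted p = 0.15), Tbx21 was at 1.39 and Nkg7 at -1.36 on the log2 scale. Summed, empty-vector mouse M311 had 258 CPM of these markers and the other 2 had 108 and 126 CPM, while the highest mouse labelled TAL1 had 144 CPM, so only M311 lay above the mice labelled TAL1, in which Klrb1c and Gzmb were at 0. Endothelial markers summed to 146 to 193 CPM and 111 to 113 CPM, with M311 highest. Of these 8 markers Kdr, Plvap and Tie1 were at 0 in the empty-vector mice and Cdh5, Tek, Emcn and Tie1 in the mice labelled TAL1. B cell markers (510 CPM) and dendritic cell markers (484 CPM) were also highest in M311, against 305 to 466 CPM and 307 to 477 CPM in the other 5 mice. Without M311, the empty-vector mouse with the highest Id2, Id2 was at -0.65 (edgeR adjusted p = 0.0156). Myeloid markers summed to 371 CPM in M318, the mouse labelled TAL1 with the lowest Id2, and to 10 to 28.8 CPM in the other 5 mice. Without M318 Id2 was at -0.73 (edgeR adjusted p = 0.0358). T cell markers summed to 12500 to 15900 CPM and 15400 to 18100 CPM. In whole thymus, fewer cells of a type and less RNA per cell cannot be told apart, and the part of these cells in the Id gene values was not tested.

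**Figure D1:**
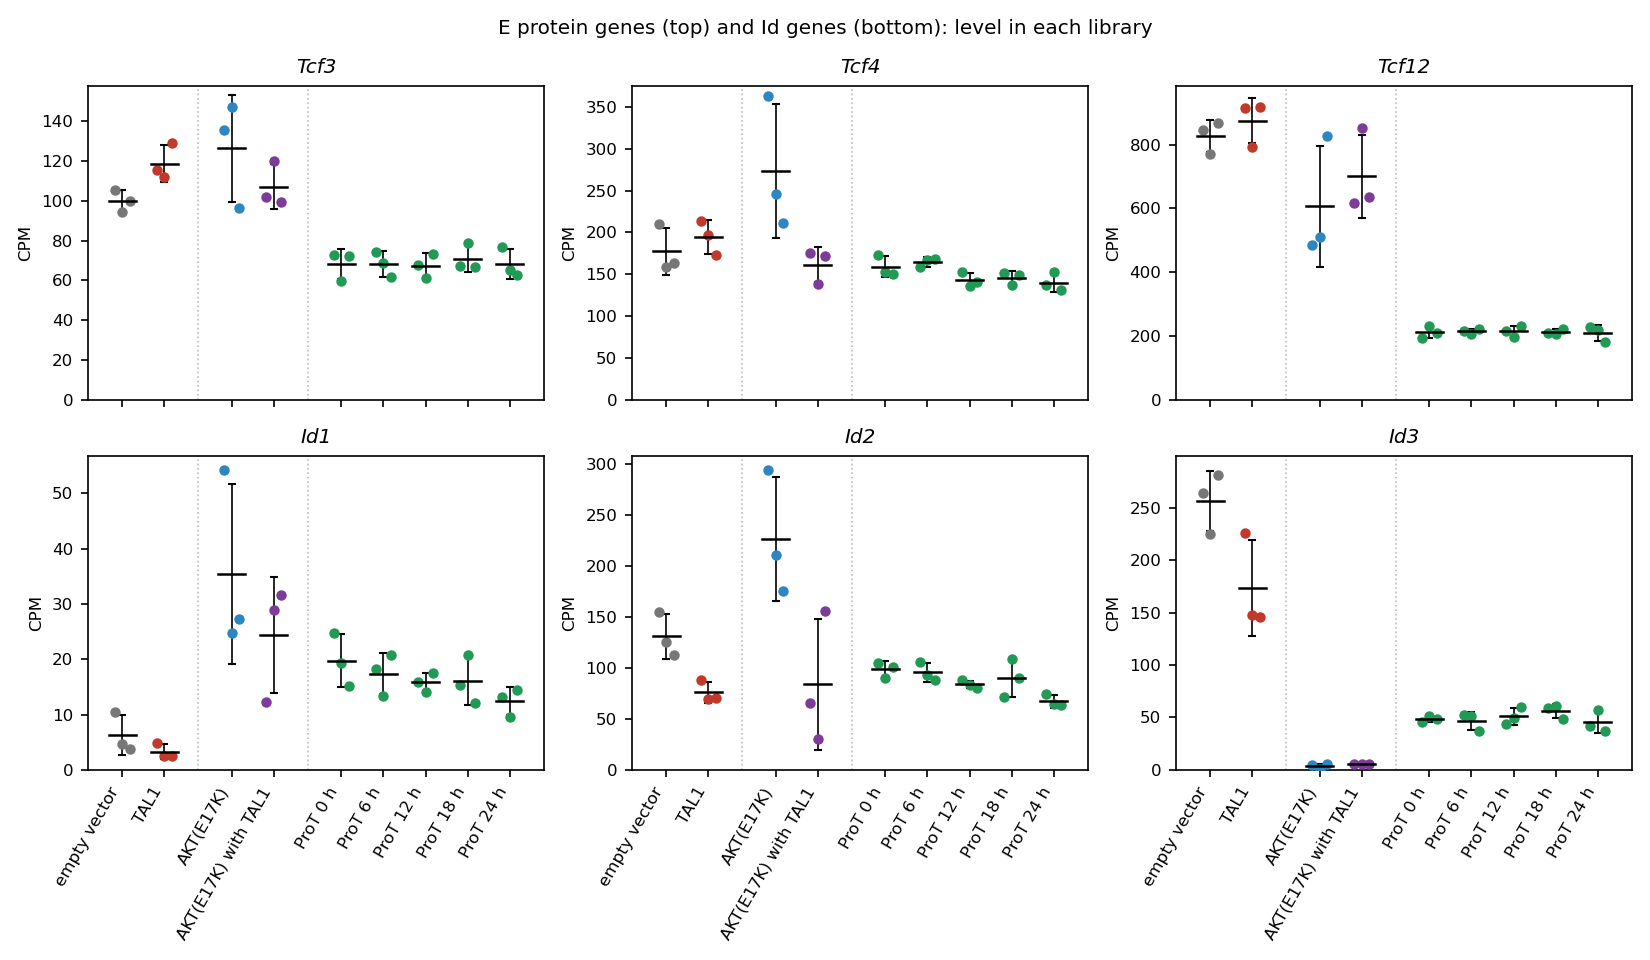
Level of each gene in every library, in CPM on a linear axis from 0 that differs between panels; points are libraries, bars the mean and whiskers 1 SD (n = 3), and dotted lines part the 3 tables. Id2 lies lower in all 3 mice labelled TAL1 than in the empty-vector mice, and Id3 is at 1.05 to 6.06 CPM in the 6 mice with AKT(E17K).

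In the AKT(E17K) background the E protein genes again did not pass the test. Tcf12 was at 484, 511 and 826 CPM in AKT(E17K) mice and at 617, 852 and 635 CPM in mice labelled AKT(E17K) with TAL1, an overlapping spread (log2 0.21 ± 0.28, edgeR adjusted p = 0.889). Tcf3 was at 136, 147 and 96.2 CPM and at 102, 120 and 99.2 CPM, also overlapping (-0.23 ± 0.23, adjusted p = 0.839). Tcf4 was at 363, 246 and 211 CPM in AKT(E17K) mice and at 175, 138 and 172 CPM in the mice whose label adds TAL1. Every mouse of the second group lay below every mouse of the first, as did 5.72% of the 9782 genes tested, and the highest value came from m121. The change was -0.76 ± 0.26 (95% interval -1.34 to -0.18, edgeR adjusted p = 0.615), and -0.5 without m121.

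Id2 showed the same layout in the AKT(E17K) background. It was at 294, 210 and 175 CPM in AKT(E17K) mice and at 65.1, 30.7 and 156 CPM in mice labelled AKT(E17K) with TAL1. The groups did not overlap, although the highest value of the second group, in m119, was close to the lowest of the first. The change was -1.44 ± 0.5 (95% interval -2.56 to -0.32) and did not pass (edgeR adjusted p = 0.635). It was -2.24 without m119 (adjusted p = 0.183) and -1.03 without m117 (adjusted p = 0.997). Id1 was at 54.1, 24.8 and 27.3 CPM and at 12.3, 29 and 31.7 CPM, overlapping (-0.55 ± 0.44, adjusted p = 0.803), and its change shrank to -0.11 without m121.

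Id3 was close to the floor of detection in both of these groups. It had 14, 2 and 21 counts in AKT(E17K) mice (4.48, 1.05 and 5.4 CPM) and 15, 15 and 13 counts in mice labelled AKT(E17K) with TAL1 (5.28, 5.3 and 6.06 CPM). Beside the 874 to 1624 counts of the 6 mice without AKT(E17K), these are low in every mouse. The mice with and without AKT(E17K) come from separate tables, so AKT(E17K) and table cannot be told apart and no test was made. Within the table the change was 0.54 ± 0.66 (95% interval -0.93 to 2.02, edgeR adjusted p = 0.868), an interval too wide to place Id3 higher or lower.

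None of the 6 genes was called in this comparison, and nor was any other gene: 0% of 9782 passed with edgeR, while 709 genes (7.25%), Tcf4 and Id2 among them, had an unadjusted p under 0.05, and DESeq2 called 76 genes but none of the 6. Mouse m121, highest for Tcf4, Id1 and Id2, also had the most stromal marker RNA (8 of 8 markers detected), myeloid marker RNA (776 CPM against 73.2 to 331 CPM in the other 5) and endothelial marker RNA (233 CPM against 59 to 147 CPM). Dendritic cell markers summed to 429, 281 and 626 CPM in AKT(E17K) mice and to 290, 118 and 594 CPM in the others. In the second group the lowest and highest of these, m117 and m119, were also lowest and highest for Id2, but in the first the highest, m124, had the lowest Id2. The part of these cells in the values was not tested.

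The change that goes with the TAL1 label was also compared between the backgrounds. The difference for Tcf4, -0.87 ± 0.29 (change with AKT(E17K) minus change without), had an unadjusted edgeR p of 0.0104 and an adjusted p of 0.288. For Id3 it was 1.05 ± 0.47 (adjusted p = 0.439) and for Id2 -0.63 ± 0.57, with a 95% interval of -1.86 to 0.6 (adjusted p = 0.713). Tcf3, at -0.46 ± 0.25, Tcf12, at 0.15 ± 0.3, and Id1, at 0.44 ± 0.68, had adjusted p-values of 0.52 to 0.885. Thus 0 of the 6 genes passed with edgeR, 2 had an unadjusted p under 0.05 (10.9% of genes did), and 0.164% of 10947 genes passed. The Id2 changes in the 2 backgrounds were therefore neither shown to differ nor, with that interval, shown to be alike.

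In ProT cells the 3 E protein genes stayed within narrow ranges over 24 h. Tcf12 was at 193, 231 and 210 CPM at 0 h and 229, 220 and 182 CPM at 24 h. Its libraries overlapped at all 5 times, and the 24 h change was -0.01 ± 0.11 (95% interval -0.24 to 0.22, edgeR adjusted p = 0.964). Tcf3 was at 72.8, 59.5 and 72.4 CPM at 0 h and 76.7, 65.3 and 62.8 CPM at 24 h. That change was 0 ± 0.12 (95% interval -0.25 to 0.25, adjusted p = 0.987), and no time differed from 0 h by more than 0.05 on the log2 scale. Tcf4 was at 173, 153 and 151 CPM at 0 h, at 158, 168 and 169 CPM at 6 h and at 137, 153 and 131 CPM at 24 h. Its libraries at 12 h, 153, 136 and 140 CPM, all lay below those at 6 h, as was so for 12.1% of all genes and for Id2, a change of -0.2 ± 0.1 that did not pass (adjusted p = 0.223), and against 0 h the 24 h change was -0.18 ± 0.11 (adjusted p = 0.242).

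Id2 and Id1 fell in ProT cells, and Id3 did not pass the test. Id2 was at 105, 90.4 and 101 CPM at 0 h, at 105, 93.3 and 87.9 CPM at 6 h, at 87.8, 82.8 and 80.7 CPM at 12 h, at 71, 109 and 90.2 CPM at 18 h and at 74.4, 64.2 and 63.2 CPM at 24 h. The 24 h libraries lay below all 3 of 0 h, and the 12 h libraries did too (as for 14.8% of all genes), while the 18 h libraries spread across both. By 24 h Id2 fell by 0.55 on the log2 scale (SE 0.13, 95% interval -0.82 to -0.29, edgeR adjusted p = 0.00364). At 12 h it was -0.24 ± 0.13 (adjusted p = 0.233) and at 18 h -0.14 ± 0.13 (adjusted p = 0.55). Between 18 and 24 h it was -0.41 ± 0.13, which did not pass over all 15 libraries (adjusted p = 0.263). Id2 was also the 1 of the 6 genes called when all 5 times were tested together (adjusted p = 0.0148), where 18% of 13610 genes were called. Without library 2 or library 3 of 24 h that p was 0.0925 or 0.0886.

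Id1 was at 24.7, 19.3 and 15.2 CPM at 0 h and at 13.2, 9.64 and 14.4 CPM at 24 h, so the lowest 0 h library stood just above the highest 24 h library. Between them it was at 13.3 to 20.7 CPM at 6 h, 14.1 to 17.4 CPM at 12 h and 12.2 to 20.7 CPM at 18 h, overlapping 0 h each time. Id1 fell by 0.63 at 24 h (SE 0.22, 95% interval -1.09 to -0.18, edgeR adjusted p = 0.0441). The call was lost without any 1 of 4 libraries: the adjusted p was 0.21 without library 1 of 0 h, 0.114 without library 2 of 0 h, 0.0749 without library 1 of 24 h and 0.198 without library 2 of 24 h. Id3 was at 46, 51.3 and 48.1 CPM at 0 h and 41.7, 57.5 and 37.2 CPM at 24 h, with the 24 h libraries on either side of those at 0 h. Its change was -0.09 ± 0.16 (95% interval -0.41 to 0.23, adjusted p = 0.726), and its highest mean was 55.9 ± 6.68 CPM at 18 h (log2 0.2 ± 0.16, adjusted p = 0.469).

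The 2 of 6 genes called at 24 h, both lower, stand beside 18.7% of all genes called in that comparison and 9.3% called lower, and groups that did not overlap in this direction were found for 20.1% of all genes. At 12 h 12% and at 18 h 8.82% of genes were called but 0 of the 6, none of which had an unadjusted edgeR p under 0.05. At 6 h edgeR called 0% of genes (734 at an unadjusted p under 0.05, and 1 with DESeq2), and the 6 genes differed from 0 h by -0.13 to 0.06. Between neighbouring times after 6 h, 10.9% of genes (12 h against 6 h), 0.0514% (18 h against 12 h) and 0.162% (24 h against 18 h) were called, with 0 of the 6 genes in each. Scaled by library size alone, the median of all genes shifted by 0.17 at 24 h, Id1 changed by -0.45 (adjusted p = 0.151) and Id2 by -0.36 (adjusted p = 0.0733), and neither passed. T cell markers summed to 1850 to 1930 CPM at 0 h and 1550 to 1760 CPM at 24 h, and NK and innate markers, all 10 of which were detected in the line, to 784 to 903 CPM and 1010 to 1050 CPM. Of these Gzma rose (483 ± 61.2 to 640 ± 16.8 CPM), while Klrb1c (log2 -2.62) and Klrd1 (-0.93) fell.

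**Figure D2:**
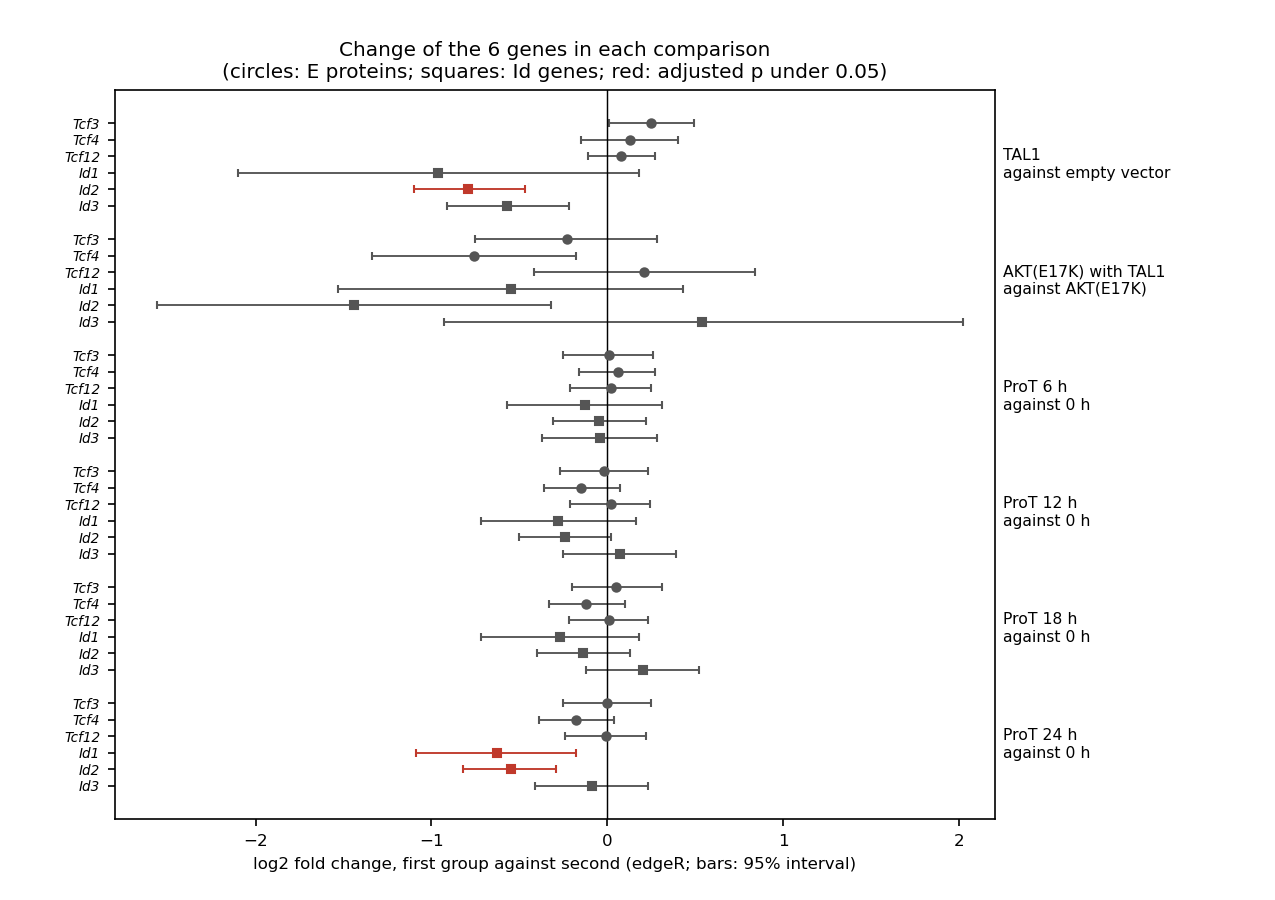
Log2 fold change of each gene in each comparison with its 95% interval from edgeR; circles are E protein genes, squares Id genes, and red marks an adjusted p under 0.05. The 3 red points are Id2 with the TAL1 label (-0.79) and Id1 (-0.63) and Id2 (-0.55) in ProT cells at 24 h, all below 0.

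To compare genes with each other, levels were divided by the length of the gene's merged exons, giving CPM per kilobase (per kb). In empty-vector thymus Id3 was highest, at 143 ± 15.8 CPM per kb. Id2 (53.8 ± 9.02) and Tcf12 (53.3 ± 3.2) followed and overlapped, then Tcf3 (24.7 ± 1.35), and Tcf4 (6.48 ± 1.02) and Id1 (5.43 ± 3.14) were lowest and overlapped. With the TAL1 label the order was Id3 (96.6), Tcf12 (56.4), Id2 (31.2), Tcf3 (29.4), Tcf4 (7.09) and Id1 (2.83), in which only the neighbours Id2 and Tcf3 overlapped. By merged exons, Id2 thus stood beside Tcf12 in one group and beside Tcf3 in the other. Divided by the length of the longest transcript instead, Tcf12 was at 131 and Id2 at 66.6 in empty-vector mice, so they were not alike there.

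By merged exons Id3 was first in both groups without AKT(E17K) and last in both with it, at 2.04 ± 1.28 and 3.1 ± 0.245 CPM per kb. The mice with and without AKT(E17K) come from separate tables, so AKT(E17K) and table cannot be told apart. In AKT(E17K) mice Id2 was first at 93 ± 25.3, clear of Tcf12 (39.1), Tcf3 (31.3) and Id1 (30.5), each of which overlapped the next. In mice labelled AKT(E17K) with TAL1, Tcf12 (45.1), Id2 (34.4), Tcf3 (26.5) and Id1 (21) overlapped from neighbour to neighbour. ProT cells at 0 h had Id2 first (40.6 ± 3.11) and Id3 next (27 ± 1.46), then Id1 (17), Tcf3 (16.9) and Tcf12 (13.6), which overlapped, and Tcf4 last (5.8). By 24 h Id2 (27.6 ± 2.55) overlapped Id3 (25.4 ± 5.97), and Id1 (10.7) lay below Tcf3 (16.9). These orders depend on the length used: over the longest transcript Tcf12, whose merged exons span 15529 bases against 6299 in its longest transcript, was first with the TAL1 label (139, with Id3 at 136) and above Id1 in ProT cells at 0 h (33.6 against 17).

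The Id genes' share of the summed level per kb of the 6 genes gives their balance in 1 value per library, with no test. It was 71.4%, 69.7% and 70.5% in empty-vector mice and 63.6%, 56.7% and 53.6% in mice labelled TAL1, with no overlap. It was 68.5%, 58% and 53.7% in AKT(E17K) mice and 36.1%, 31.2% and 56.8% in those labelled AKT(E17K) with TAL1, where the mouse at 56.8% overlapped the first group. The E protein sum moved less than the Id sum: it was 84.5 ± 4.93 and 92.9 ± 5.99 CPM per kb in empty-vector and TAL1 mice and 80.4 ± 3.77 and 77.6 ± 10.4 in the AKT(E17K) pair, while the Id sum was 203 ± 19.4 and 131 ± 31, and 126 ± 39 and 58.4 ± 31.2. In ProT cells the share was 71%, 70% and 68.8% at 0 h, between 67.3% and 71.8% at 6, 12 and 18 h, and 62.7%, 65% and 64.8% at 24 h, below every earlier library. The gene behind the Id sum differed: Id3 and Id2 made up most of it in the mice without AKT(E17K), Id2 and Id1 in the mice with it. Here too AKT(E17K) and table cannot be told apart.

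**Figure D3:**
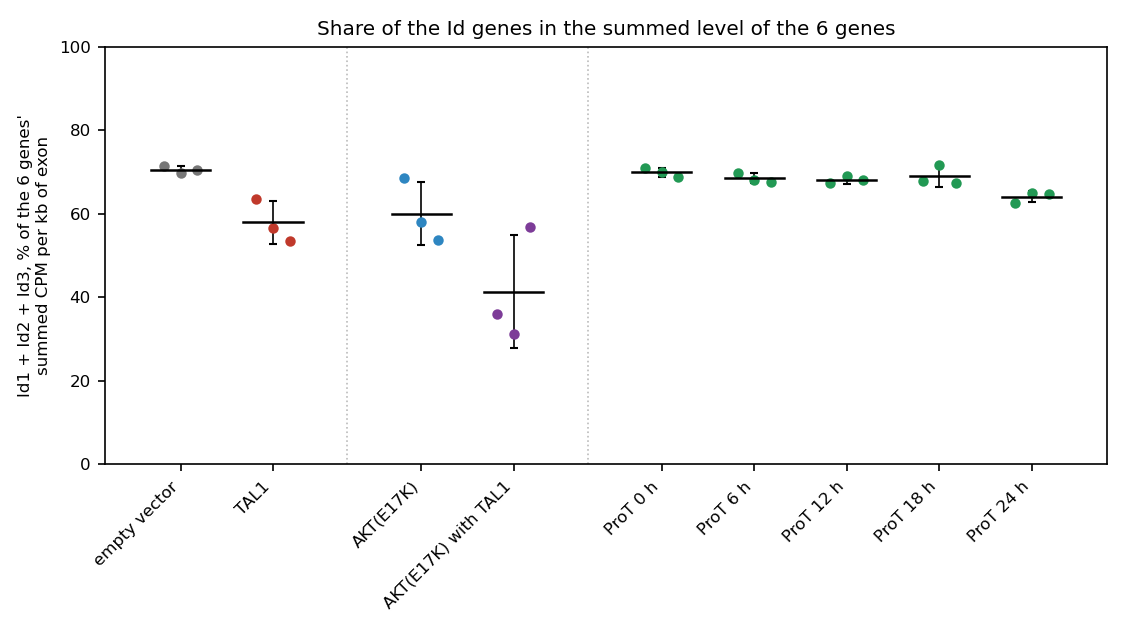
Share of Id1, Id2 and Id3 in the summed CPM per kb of the 6 genes, in percent, for each library; bars are means and whiskers 1 SD (n = 3), and dotted lines part the 3 tables. The empty-vector mice lie at 69.7% to 71.4%, the mice labelled TAL1 at 53.6% to 63.6%, and ProT cells at 24 h (62.7% to 65%) below all earlier times.

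Genes known as targets of E proteins in lymphocytes changed in both directions in mice labelled TAL1. Of 24 such genes 22 were tested, 1 rose and 3 fell, beside 5.04% of all genes called, with a median log2 change of 0.08 (all genes, 0). This list and those of the following paragraphs were chosen with earlier results of these data known, so their counts do not test the lists. Dntt, the terminal transferase of antigen receptor rearrangement, rose from 1220 ± 81.2 to 1860 ± 102 CPM (log2 0.61, edgeR adjusted p = 0.00112). Il7r, the interleukin-7 receptor, fell from 131 ± 21.5 to 36.3 ± 5.48 CPM (log2 -1.84, adjusted p = 0.000219). Foxo1, a transcription factor that AKT inhibits, fell from 179 ± 16.1 to 102 ± 7.45 CPM (-0.82, adjusted p = 0.00156), and Cd5 was the other that fell. In the AKT(E17K) background 0 of 21 passed, as did 0% of all genes (median 0.25, all genes -0.01). Foxo1 was there at 49.9 ± 18.1 and 172 ± 120 CPM (log2 1.77, adjusted p = 0.478) and Gata3, a T lineage factor, was at 0.82 on the log2 scale (adjusted p = 0.581). In ProT cells at 24 h 3 of 20 rose and 0 fell, beside 18.7% of all genes called and 9.43% called higher (median 0.04, all genes -0.01): Hes1, a Notch target, rose from 56.5 ± 4.42 to 104 ± 11.7 CPM (0.88, adjusted p = 0.000857), and Notch1 and Cd5 were the others. Hes1 was also called at 12 h (3 of 20 rose, beside 6.33% of all genes) and 18 h (1 of 20 rose, beside 4.89%).

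Of the partners and cofactors of the E protein and TAL1 complexes, some were called in ProT cells and none in the mouse comparisons. Of 27 such genes, 14 were tested in the TAL1 comparison (median 0.05) and 15 in the AKT(E17K) background (median 0.11), and 0 were called in each, beside 5.04% and 0% of all genes. In the latter Lmo4, a LIM-only adaptor, was at 80.2 ± 33.1 and 362 ± 211 CPM (log2 2.17, edgeR adjusted p = 0.373). At 24 h in ProT cells 2 of 19 rose, 4 fell and 13 were not called (median 0.06), beside 18.7% of all genes called. The list includes Tal1 itself, whose fall is given above and is counted among the 4. Ssbp2, which stabilises the adaptor LDB1, fell from 70 ± 6.61 to 33.3 ± 3.91 CPM (log2 -1.05, adjusted p = 1.8e-05), and Ldb1, which joins LMO proteins to the complex, from 114 ± 20.7 to 66.9 ± 4.77 CPM (-0.75, adjusted p = 0.000204). Lyl1, the closest relative of Tal1, rose from 54.8 ± 6.59 to 87.6 ± 2.95 CPM (0.66, adjusted p = 0.000278). Id4, the remaining Id gene, had 0 counts in all 27 libraries.

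Among 21 genes whose products control Id genes (Egr and NFAT factors, and receptors and SMADs of the TGF-β and BMP pathways), 3 of 16 fell and 0 rose in mice labelled TAL1 (median -0.14), beside 2.88% of all genes called lower. These were Smad7, an inhibitory SMAD that fell from 29.9 ± 5.15 to 4.98 ± 1.41 CPM (log2 -2.57, edgeR adjusted p = 0.000625), Acvrl1, a BMP9 receptor mostly of endothelium, from 17 ± 3.32 to 1.36 ± 0.609 CPM (-3.61, adjusted p = 0.000664), and Tgfbr2, the type II TGF-β receptor, from 55.4 ± 1.19 to 19.4 ± 5.57 CPM (-1.5, adjusted p = 0.00163). The list was chosen with earlier results of these data known, so the 3 of 16 do not test it. In the AKT(E17K) background 0 of 13 passed (median -0.46), with Tgfbr1 at -0.91 (adjusted p = 0.478). In ProT cells Egr1, an immediate early factor that can induce Id3, was at 4.96 ± 2.34 CPM at 0 h, 79.8 ± 19.5 CPM at 18 h (log2 3.99, adjusted p = 5.96e-11) and 17.7 ± 4.3 CPM at 24 h (1.83, adjusted p = 0.000114). Id3 did not pass at either time. At 24 h 2 of 15 rose, Egr1 and Smad3, and 1 fell, Tgfbr2, from 24.5 ± 2.73 to 16 ± 2.34 CPM (-0.63, adjusted p = 0.0124). That count is near the share of all genes called at 24 h, 18.7%.

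**Figure D4:**
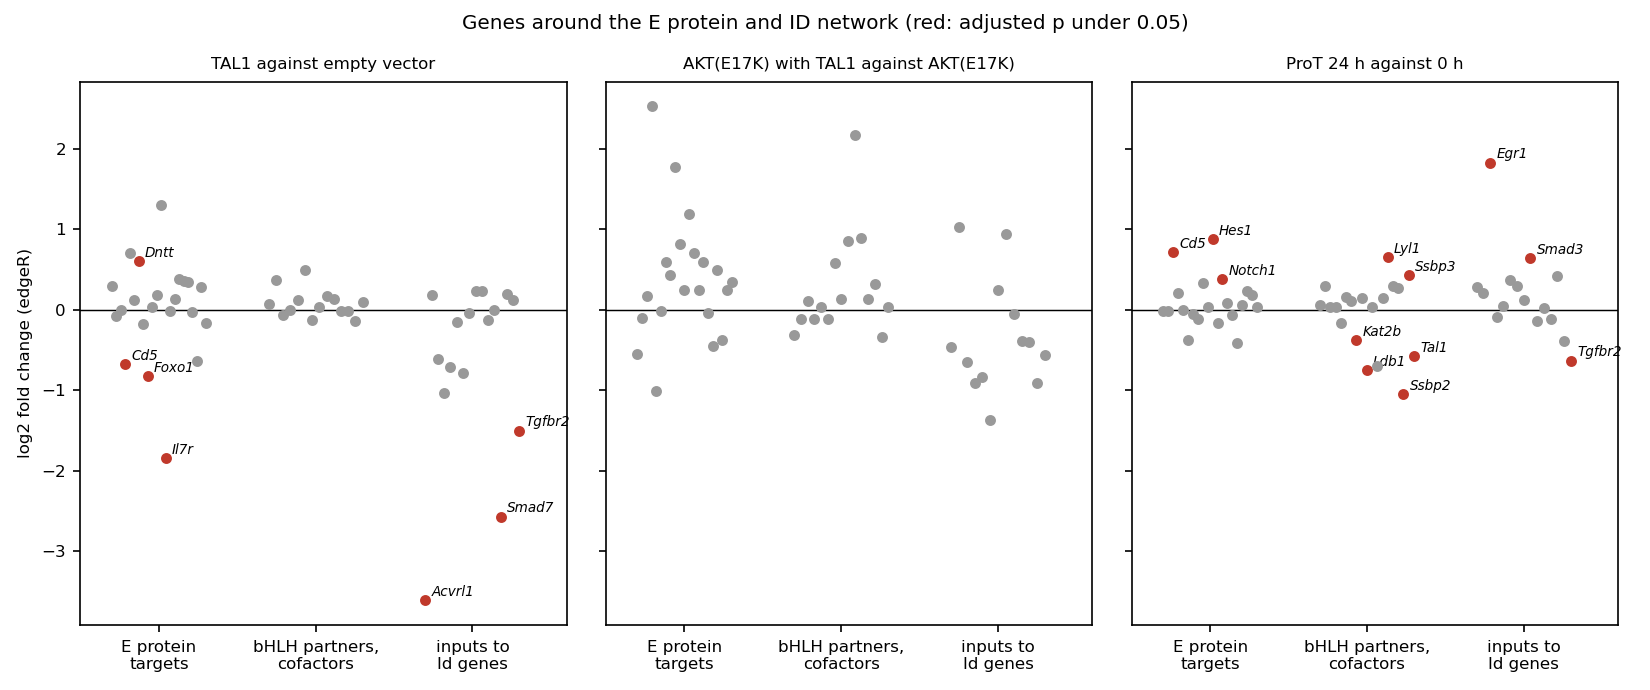
Log2 fold change (edgeR) of each tested gene of the 3 lists, as points spread sideways only for legibility, in the comparison named over each panel; red points passed an adjusted p under 0.05 and are named. The left panel has 4 named E protein targets, 0 named partners and 3 named inputs to Id genes, all 3 below 0, and the middle panel has none.

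Over the 15 ProT libraries, which share a line and fall into 5 times, the genes most alike to each of the 6 were ranked by Pearson's r of log2 CPM. The highest r were picked from the 13610 genes of the ProT fit and were not tested. Over all times only Id2 of the 6 passed (edgeR adjusted p = 0.0148). Tcf3 (0.988), Tcf4 (0.312), Tcf12 (0.999), Id1 (0.213) and Id3 (0.551) did not. Of the nearest genes named below, only Fbxl20 (edgeR adjusted p = 0.000973) and Acadm (0.00673) passed over all times. For Id2 the nearest genes were Fbxl20 (0.863), C77080 (0.857) and Vamp2 (0.843), and for Id1 Riok3 (0.879), Zc3h12c (0.851) and Tph1 (0.799). For Id3 they were Cers6 (0.865), Pxmp4 (0.843) and Chac2 (0.838). Tcf4 was most like Gm19325 (0.927), Acadm (0.896) and Tpcn1 (0.89), Tcf12 like Pcsk7 (0.864), Ltn1 (0.771) and 1500002C15Rik (0.769), and Tcf3 like Agps (0.802), AC160122.1 (0.788) and Dnajc10 (0.777). None of the 6 was among the 3 nearest of another. The highest r between a pair of them was 0.63, for Id1 and Id2, then 0.44 for Tcf4 and Id2 and 0.42 for Tcf3 and Id2, and the other pairs lay between -0.11 and 0.33.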

How the data were processed

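RNA-seq counts per gene were deposited by the authors as 3 tables, and the submitters' processing notes name FastQC, HISAT2, SAMtools and HTSeq with mm10 and GRCm38. Their versions, the gene annotation and how strand was handled are not given in the sources used here. The members and the gene lists were chosen with earlier results of these data known, and 1 listed gene is not reported here. HTSeq's summary lines, 44.7% to 66.6% of the column totals in 2 tables, were left out of library sizes, and 27 symbols altered to dates in these tables were restored from their identifiers. Within each table, genes passing filterByExpr were tested with edgeR 4.0.16 (R 4.3.3; TMM, quasi-likelihood F test, no replicate block, Benjamini-Hochberg, adjusted p under 0.05), with a prior count of 2 for log2 CPM, and the 15 ProT libraries were fitted together. SEs are the log2 change over the square root of F. The procedure was tested on simulated data. The biological coefficient of variation was 22% in the empty vector and TAL1 table, 35% in the AKT(E17K) table and 11.6% in ProT cells, which limits the precision. The contrast between backgrounds used genes unique in both mouse tables and fitted the 12 mice together. Lengths came from GENCODE M21 on GRCm38, and a count of 0 was read as up to 3 counts. Named genes were the 6 members, up to 4 called genes of a list per comparison with the smallest p (up to 2 where none was called; other genes were named after their values were seen), and the 3 genes of highest r for each member. Alternatives were other scalings, no filter, DESeq2 1.42.0, the replicate block, fits of 2 times only, the longest transcript as length, and each library left out.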

Additional observations from a re-analysis of the deposited data

Results flagged for a closer look

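Cd2, a T cell surface receptor and 1 of the 12 T cell markers, differed between backgrounds in how it changed with the TAL1 label. It was at 274 to 343 CPM in empty-vector mice and 182, 140 and 210 CPM in mice labelled TAL1, and at 0.32, 2.63 and 13.9 CPM in AKT(E17K) mice and 101, 94.6 and 48.9 CPM in mice labelled AKT(E17K) with TAL1. The change with AKT(E17K) exceeded the change without it by 4.54 ± 0.77 on the log2 scale (edgeR adjusted p = 0.0346). Within the AKT(E17K) background alone, the Cd2 change of 3.75 ± 0.8 did not pass (edgeR adjusted p = 0.373). The contrast was fitted on the 12 mice together with a shared estimate of spread, although the mice with AKT(E17K) were more variable. Its SE of 0.77 is below the 0.8 of that background alone, so the p of the contrast may be too small. The AKT(E17K) mice had only 1, 5 and 54 counts of Cd2. None of the 6 E protein and Id genes met such a criterion, and groups of 3 were not tested for single outlying libraries.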

How the results depend on the processing

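With the TAL1 label, Id2 passed under all 10 alternatives (log2 -0.91 to -0.65). Beside Id2, a 2nd gene of the 6, Id3, passed with library size only (-0.61, adjusted p = 0.0446), with no filter and with DESeq2, making 2 called members in each. The genes called were 1107 with no filter, and 337 (without M312) to 661 (1 to 2 members) without 1 mouse. In the AKT(E17K) background 30 genes passed with no filter, 76 with DESeq2 and 0 to 8 without 1 mouse. The contrast between backgrounds called 58 genes with no filter, 186 with DESeq2 and 2 to 173 (without m124) without 1 mouse. In ProT cells, library size only left 0 members called at 24 h and 0 over all times (Id2 adjusted p = 0.166), gave 2041 higher and 339 lower calls at 12 h (861 and 774 with TMM), 1122 and 246 at 18 h (666 and 534), 2560 and 622 at 24 h (1283 and 1266) and 908 and 386 for 12 h against 6 h (754 and 723), and shifted the median of all genes by 0.1 at 6 h, 0.18 at 12 h, 0.13 at 18 h and 0.17 at 24 h. Uncalled values that changed sign there were, against 0 h, Id2 0.06 and Id3 0.06 (6 h), Tcf3 0.17 and Tcf4 0.05 (12 h), Tcf4 0.03 and Id2 0 (18 h) and Tcf4 0.02, Tcf12 0.18 and Id3 0.1 (24 h); Tcf3 0.06 and Tcf12 0.09 for 12 h against 6 h; Tcf4 -0.02 and Id1 -0.03 for 18 h against 12 h; and Tcf12 0.03 for 24 h against 18 h. Near 0, Tcf3 was 0.01 (12 h) and Tcf12 0.02 (24 h) and 0.01 (12 h against 6 h) with no filter, and Tcf12 was 0 with median-ratio factors (12 h against 6 h). Genes called moved to 1 at 6 h with DESeq2, to 27 (no filter) and 13 (DESeq2) for 18 h against 12 h, and to 6 (library size only), 64 (no filter) and 36 (DESeq2) for 24 h against 18 h. Fitted on the 6 libraries of 2 times only, they were 2244 at 18 h, 573 for 12 h against 6 h and 341 for 24 h against 18 h, where 1 member passed, Id2 (adjusted p = 0.0286). Leaving out 1 library gave 0 genes at 6 h, then 819 (without library 2 of 0 h) to 1521 at 12 h, 419 (without library 1 of 18 h) to 1006 at 18 h, 1447 (without library 2 of 0 h) to 2281 at 24 h (1 to 2 members), 1810 to 3533 over all times (0 to 1 members), and 657 to 2434, 6 to 14 and 1 to 27 between neighbouring times. Uncalled values that changed sign without 1 library ranged, at 6 h, Tcf3 -0.08 to 0.08, Tcf12 -0.03 to 0.09, Id1 -0.31 to 0.04, Id2 -0.12 to 0.02 and Id3 -0.13 to 0.1. At 12 h these were Tcf3 -0.11 to 0.05, Tcf12 -0.04 to 0.09 and Id3 -0.06 to 0.17, at 18 h Tcf3 -0.03 to 0.11, Tcf12 -0.05 to 0.08 and Id2 -0.29 to 0.01, and at 24 h Tcf3 -0.09 to 0.06, Tcf12 -0.07 to 0.09 and Id3 -0.29 to 0.03. For 12 h against 6 h they were Tcf3 -0.1 to 0.05, Tcf12 -0.05 to 0.06 and Id3 -0.03 to 0.21, for 18 h against 12 h Tcf3 -0.01 to 0.13, Tcf4 -0.01 to 0.08, Tcf12 -0.07 to 0.04, Id1 -0.2 to 0.19 and Id2 -0.05 to 0.24, and for 24 h against 18 h Tcf3 -0.14 to 0.03 and Tcf12 -0.08 to 0.08. The contrast between backgrounds ranged from -0.02 to 0.44 for Tcf12 and from -0.16 to 0.88 for Id1. Over the longest transcript the Id share was 59.4% (empty vector), 46.3% (TAL1), 45.9% (AKT(E17K)), 28.2% (AKT(E17K) with TAL1, from 41.4%) and 58.3%, 56.7%, 56.7%, 57.8% and 52.5% in ProT cells at 0 to 24 h. The causes of these shifts were not tested. Depth limits Id3 in mice with AKT(E17K), at 2 to 21 counts, and Id1 in mice without it, at 18 to 63.

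The ProT numbers did not pair the libraries: of 30 same-number pairs of deviations 1 correlated above 0.1 (median -0.008), and 4 of 15 libraries correlated best with their own number. With the replicate block, Id1 was -0.64 (adjusted p = 0.0401) and Id2 -0.56 (adjusted p = 0.0031) at 24 h, Tcf3 was 0 there, and 2662 genes were called at 24 h, with no change in which members passed. No paired analysis was possible in mice because their labels carry no shared replicate numbers.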
